A study of Homo sapiens with 6 samples.

Results

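The genes described here are 10 members of the prostaglandin and lipoxygenase pathways, named as a list (PLA2G4A, PTGS1, PTGS2, PTGES, PTGES2, PTGES3, PTGER2, PTGER4, HPGD and ALOX5). They were found by exact gene symbol in a table of 24000 gene entries, and all 10 members of the list had 1 entry each. The table holds RNA-seq values of 6 tumors of PC-3, an androgen-independent human prostate cancer cell line, grown in athymic nude mice. For 3 tumors the mice received vehicle and for the other 3 they received WCE, an extract of the herb *Wedelia chinensis* standardized for luteolin, apigenin and wedelolactone. The labels give a treatment of 10 weeks for all 6 tumors and no dose. The comparison of WCE with vehicle asks which transcripts of the tumor differ with the extract.

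All tumors came from 1 cell line, so they replicate the host and the tumor but not the cancer. The mice were male and 6 weeks old when obtained. According to the study's methods the cells carried a firefly luciferase gene and were implanted into the prostate, and WCE was given by mouth. Athymic mice lack mature T cells but keep myeloid cells, fibroblasts and vessels. Mouse RNA from these cells can contribute reads to human entries or be missed by them, so low values of host cell markers do not measure these cells. In bulk tumors fewer cells of a type and less RNA per cell cannot be told apart. The design text calls the samples individual tumors, and the p-values below treat these 6 tumors as independent. For vehicle replicate 3 and WCE replicate 1, which had nearly the same values as described below, independence was not tested.

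Eicosanoids are signaling lipids made from arachidonic acid. Phospholipases release the fatty acid from membranes, cyclooxygenases turn it into prostaglandin H2, and terminal synthases convert this into prostaglandin E2 (PGE2) and related prostanoids, which act on cells through G protein-coupled receptors. The prostaglandin dehydrogenase HPGD breaks PGE2 down, whereas in a separate branch the lipoxygenase ALOX5 leads to the leukotrienes. Cyclooxygenase-2, encoded by PTGS2, is the inducible enzyme of inflammation and responds to factors such as NFκB, the factor at the center of the study. PGE2 in tumors is known for its effects on growth, vessels and myeloid cells.

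The starts of PTGS2 and PTGES are shown because these genes encode the inducible enzymes for PGE2 and varied most among the members that were tested. The sequences are the 250 bases before the start site from RefSeq on GRCh38.p14, at chr1:186680424-186680673 on the minus strand for PTGS2 and at chr9:129753043-129753292 on the minus strand for PTGES. Each is written 5′ to 3′ with matches to searched motifs in capitals.
PTGS2: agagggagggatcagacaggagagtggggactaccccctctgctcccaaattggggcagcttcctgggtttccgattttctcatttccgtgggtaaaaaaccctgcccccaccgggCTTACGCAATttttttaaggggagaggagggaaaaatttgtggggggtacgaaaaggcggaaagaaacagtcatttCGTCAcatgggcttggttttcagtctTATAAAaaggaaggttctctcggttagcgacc
PTGES: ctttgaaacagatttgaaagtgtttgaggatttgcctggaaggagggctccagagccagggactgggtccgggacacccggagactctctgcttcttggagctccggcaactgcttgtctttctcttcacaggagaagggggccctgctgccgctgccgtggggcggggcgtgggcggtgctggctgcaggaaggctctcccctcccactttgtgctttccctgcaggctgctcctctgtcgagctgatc
The motifs were searched on both strands. The NFκB site was GGGRNNYYCC, with R for A or G, Y for C or T and N for any base. The others were the cyclic AMP response element TGACGTCA, its shorter form TGACG, the TATA box TATAAA, the C/EBP site TTNNGNAAN and the E-box CACGTG. In PTGS2 the capitals mark, from left to right, overlapping C/EBP matches at 134 to 126 and 133 to 125 bases before the start, the short cyclic AMP motif on the other strand at 58 to 54 bases, and a TATA box at 32 to 27 bases. The PTGES window held no match to any of these motifs.

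Start site windows were found for 9 of the 10 members, in 13 windows, because some genes have several starts; the exception was ALOX5. The NFκB motif was in 4 of the 13 windows, those of HPGD, PTGER4, PTGES3 and PTGER2, and in 9.96% of all 35116 windows. The short cyclic AMP motif was in 4 windows (21.2% of all windows), C/EBP in 3 (33.1%), the TATA box in 2 (10.7%), the E-box in 1 (6.34%) and the full cyclic AMP element in 0 (1.65%). A match is a run of letters and not a measured binding site, and an absent match says only that these letters are not in the window. Only exact matches were counted, so the PTGS2 window is not shown to lack an NFκB site. Binding was not measured in these samples.

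Expression was deposited as FPKM, which divides fragments by transcript length and by the total mapped, so levels can be compared between genes. The table gives no read counts. From the steps between its lowest values, WCE replicate 1 was the shallowest library, at 25.0% of the depth of vehicle replicate 3, and the others stood between 64.8% and 85.2%. Vehicle replicate 3 and WCE replicate 1 had nearly the same values although they carry different treatments. Their median absolute log2 difference was 0.0278 over the 1915 entries that reached a mean FPKM of 50, compared with 0.0961 to 0.249 for the other 14 pairs of tumors. Over the members it was 0.0376, compared with 0.0478 to 0.322. The largest difference of a member between them was 0.22 on the log2(FPKM + 1) scale, at PTGES. Of all entries, 0 were above 0 in WCE replicate 1 and at 0 in vehicle replicate 3, and 1419 were the reverse. Against each other tumor, 329 to 546 entries were above 0 only in WCE replicate 1. Whether these 2 libraries are independent was not tested. Differences between groups of the tested genes named below are therefore also given without vehicle replicate 3 and WCE replicate 1, as 2 against 2.

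Genes listed as markers of PC-3 cells (KRT8, KRT18, KRT19, EPCAM and VIM) had a summed FPKM of 1420 to 1796. VIM is not specific to epithelium, and the sum hides opposite changes of single genes. Mean EPCAM was 246.7 in vehicle tumors and 146.8 in WCE tumors, and the groups did not overlap, as in 12.8% of all tested entries. Vehicle replicate 3 (184.9) and WCE replicate 1 (180.0) were close together. Mean VIM was 355.9 and 473.3, with overlap, and the groups also overlapped for the keratins. The prostate-specific kallikreins KLK3 and KLK2 were listed at 0 in all tumors. All 10 myeloid markers lay under a mean FPKM of 0.5, with a sum of 0.507 to 1.56 in vehicle tumors and 0.854 to 2.12 in WCE tumors, and TYROBP and MRC1 were listed at 0. Fibroblast markers summed to 42.1 to 56.4 in vehicle tumors and 12.8 to 55.9 in WCE tumors, with the lowest sum in WCE replicate 2. Of the 6, 3 lay under that mean. COL1A1 made up most of the sum, at 10.4 in WCE replicate 2 and 29.5 to 45.7 in the other tumors. Endothelial markers summed to 1.20 to 3.37 and 3.21 to 7.60, with 3 of 5 under a mean FPKM of 0.5. Mean KDR was 0.330 in vehicle tumors and 2.42 in WCE tumors, with 5.12 in WCE replicate 3. Mean PECAM1 was 2.14 and 2.30. Of the neutrophil and mast cell markers, CSF3R and TPSAB1 were listed at 0 and S100A8 and S100A9, which epithelial tumors also express, made up nearly all of the sum.

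The members spanned a wide range of levels in the tumors. PTGES3 and HPGD stood highest, with mean FPKM of 244.6 and 243.5, and their ranges over the tumors overlapped. PTGES2 followed at 36.9, above PTGES at 12.4 with no overlap between tumors. PTGS2 (7.86), PTGER4 (4.65), PLA2G4A (3.44) and PTGER2 (2.51) came next, and each of these overlapped the gene above it in this order. PTGS1 (0.0830) and ALOX5 (0.0641) were lowest and overlapped each other. The plot of members by tumor shows this order.

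**Figure D1:**
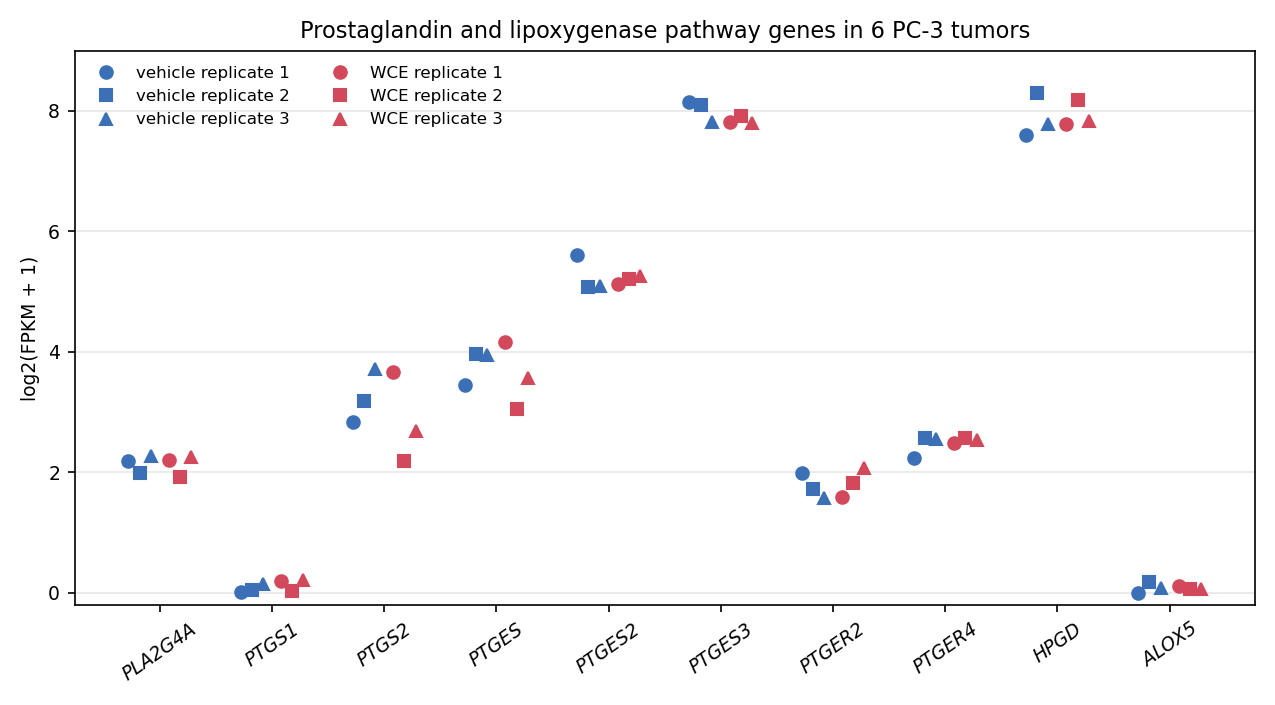
Level of each member, as log2(FPKM + 1), in 3 vehicle tumors (blue) and 3 WCE tumors (red), with the replicate number shown by the symbol. PTGES3 and HPGD lie at the top, PTGS1 and ALOX5 lie near 0, and the groups overlap for every gene.

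The comparison used limma on log2(FPKM + 1) values. Entries had to reach a mean FPKM of 0.5, as 13287 entries and 8 of the 10 members did. On this scale the change of a low gene is understated. By limma, 0 of the 8 had an adjusted p under 0.05, with 0.00753% of all entries called, and 0 of the 8 had an unadjusted p under 0.05, with 7.1% of all entries called. The groups overlapped for all 8, whereas 12.8% of all tested entries had groups that did not overlap. The difference was above 0 for 3 members and below 0 for 5, and its median was −0.04 on the log2 scale, compared with −0.0063 over all entries. The lowest adjusted p among the members was 0.647, at PTGES3. An exact permutation test of 3 tumors against 3 can go no lower than a two-sided p of 0.1. A p above the threshold does not show that the levels were the same.

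PLA2G4A encodes the cytosolic phospholipase that releases arachidonic acid from membranes, and lies at chr1:186798032-186958113 in the table. Its FPKM was 3.57, 3.00 and 3.86 in vehicle replicates 1 to 3 and 3.62, 2.81 and 3.77 in WCE replicates 1 to 3. Replicate 2 was the lowest of each group, and the groups covered nearly the same range. The difference, WCE minus vehicle, was −0.03 ± 0.14 (SE) on the log2 scale, with a 95% interval from −0.35 to 0.29 and a limma p of 0.848. With 2 tumors against 2 it was −0.0039.

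The cyclooxygenases differed widely in level. PTGS1, the constitutive enzyme, lies at chr9:125133229-125157981 and had an FPKM of 0.0147, 0.0378 and 0.112 in vehicle tumors and 0.149, 0.0224 and 0.163 in WCE tumors. These values are so low that they correspond to about 1, 3 and 12 of the smallest steps in vehicle tumors and about 4, 2 and 14 in WCE tumors, where a step may stand for a single fragment. PTGS1 did not pass the filter on low values and was not tested. PTGS2 was the main cyclooxygenase transcript in every tumor.

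PTGS2 lies at chr1:186640944-186649559, 148472 bases from PLA2G4A. Its FPKM was 6.16, 8.08 and 12.2 in vehicle tumors and 11.7, 3.59 and 5.43 in WCE tumors. WCE replicates 2 and 3 were the lowest of all tumors, while WCE replicate 1 was second only to vehicle replicate 3. The means were 8.82 ± 3.09 (SD, n = 3) in vehicle tumors and 6.91 ± 4.26 (SD, n = 3) in WCE tumors, and the highest tumor had 3.40 times the FPKM of the lowest. The difference was −0.40 ± 0.38 (SE) on the log2 scale, with a 95% interval from −1.28 to 0.48, a limma p of 0.322 and an adjusted p of 0.732. The exact permutation p was 0.4.

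The PTGS2 result depended on which tumors were used. Without vehicle replicate 3 and WCE replicate 1 the difference was −0.57 ± 0.22 (SE), with a limma p of 0.0459, and 18.4% of all entries had an unadjusted p under 0.05 in that fit. Without WCE replicate 1 alone it was −0.81 with a limma p of 0.0220, in a fit where 15.3% of entries were below that threshold. Without WCE replicate 2, the tumor with the lowest fibroblast marker sum, it was −0.073. When limma weighted the tumors by their spread it was −0.63 with a limma p of 0.0473, and 24.1% of entries were below the threshold. The adjusted p ranged from 0.203 to 0.998 over all alternatives. The direction was the same in each of them.

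With 1 added to each FPKM, the low PTGS1 values moved the balance of the inducible and the constitutive cyclooxygenase little. On that scale the balance followed PTGS2 and was not a separate result. The difference of their log2(FPKM + 1) values was 2.82, 3.13 and 3.57 in vehicle tumors and 3.47, 2.17 and 2.47 in WCE tumors. WCE replicates 2 and 3 lay below every vehicle tumor and WCE replicate 1 lay among them. The group means were 3.17 ± 0.38 and 2.70 ± 0.68 (SD, n = 3 each), a difference of −0.47 with an exact permutation p of 0.3. It became −0.86 when WCE replicate 1 was left out, −0.27 when vehicle replicate 3 was, and −0.21 when WCE replicate 2 was. For 2 tumors against 2 it was −0.66, with an exact permutation p of 0.333, the smallest that this design allows. With a pseudocount of 0.1 in place of 1, the difference for all tumors was −0.88 (exact permutation p 0.1). PTGS1, at about 1 to 14 steps, weighs more there.

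Among the PGE2 synthases, PTGES encodes the inducible microsomal enzyme, which works with cyclooxygenase-2. It lies at chr9:132500615-132515344 and had an FPKM of 9.91, 14.6 and 14.5 in vehicle tumors and 17.0, 7.26 and 10.9 in WCE tumors. WCE replicate 1 was the highest tumor and WCE replicate 2 the lowest, so the WCE group enclosed the vehicle group. The difference was −0.19 ± 0.28 (SE) on the log2 scale, with a 95% interval from −0.85 to 0.46 and a limma p of 0.513. It was −0.40 with a limma p of 0.176 for 2 tumors against 2, and turned to 0.083 without WCE replicate 2.

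PTGES exceeded PTGS2 in each tumor, by 1.19 to 2.02 times in FPKM. WCE replicate 2 was the lowest tumor for both genes. It also had the lowest fibroblast marker sum, which was mostly COL1A1, at 12.8 compared with 42.1 or more in the other tumors. The part of fibroblasts in the levels of PTGS2 and PTGES was not tested. The plot of 4 pathway genes shows both transcripts tumor by tumor beside HPGD and ALOX5AP.

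**Figure D2:**
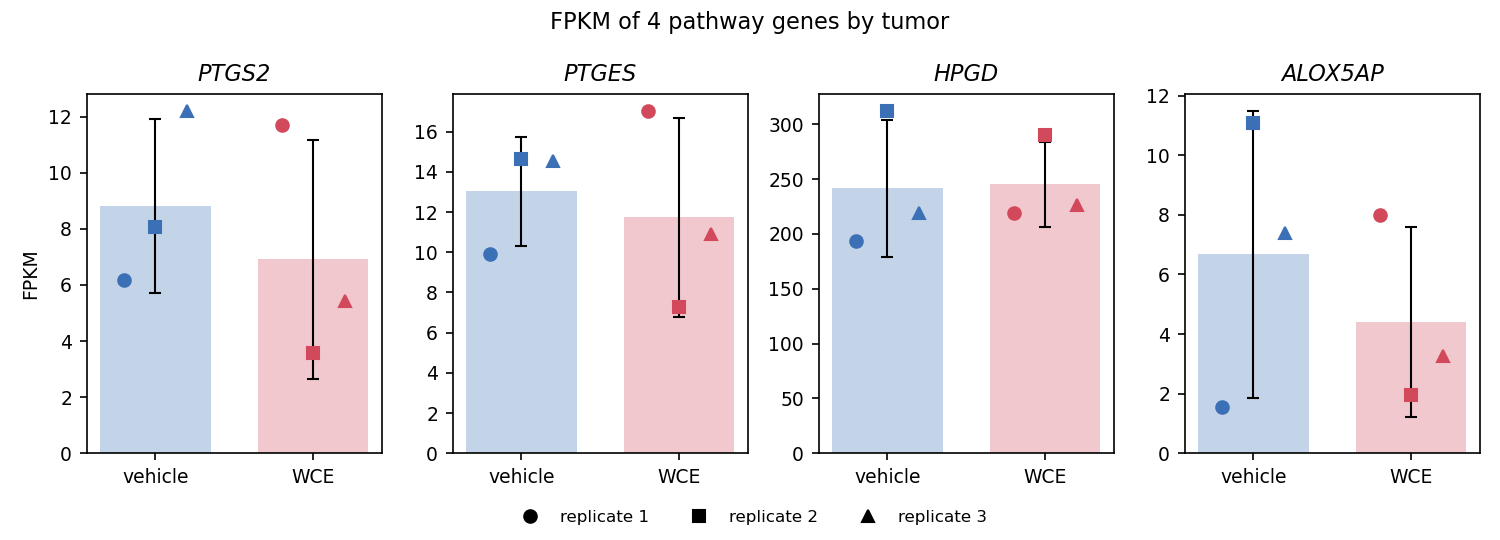
FPKM of PTGS2, PTGES, HPGD and ALOX5AP in each tumor (points, shape by replicate), with bars at the group mean and error bars of 1 SD (n = 3). WCE replicate 1 lies high among the WCE tumors for PTGS2, PTGES and ALOX5AP, and the groups overlap in all panels.

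PTGES2 encodes a membrane-associated PGE2 synthase and lies at chr9:130882972-130890741. Its FPKM was 47.7, 33.0 and 33.3 in vehicle tumors and 33.8, 36.2 and 37.6 in WCE tumors. Vehicle replicate 1 stood above the others, which lay close together. The difference was −0.06 ± 0.15 (SE) on the log2 scale with a limma p of 0.696, and −0.10 for 2 tumors against 2. It turned to 0.11 without vehicle replicate 1.

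PTGES3, at chr12:57057125-57082078, encodes the cytosolic PGE2 synthase known as p23, which is also a co-chaperone of HSP90. Its FPKM was 283, 274 and 225 in vehicle tumors and 225, 240 and 221 in WCE tumors. Vehicle replicates 1 and 2 were the highest, and vehicle replicate 3 lay within the WCE range. The difference was −0.18 ± 0.12 (SE) on the log2 scale, with a 95% interval from −0.45 to 0.09, a limma p of 0.163 and an exact permutation p of 0.3. For 2 tumors against 2 it was −0.27 with a limma p of 0.0541. Without vehicle replicate 3 it was −0.28 with a limma p of 0.0266 and an adjusted p of 0.332, in a fit where 13.3% of entries had an unadjusted p under 0.05. Its adjusted p over all alternatives ranged from 0.239 to 0.964.

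In level, the constitutive synthases exceeded the inducible synthase in every tumor. PTGES3 was 13.2 to 33.1 times PTGES in FPKM, and 5.88 to 8.31 times PTGES2. The wider first range came from PTGES, which varied more between tumors than PTGES3 or PTGES2 did.

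Of the PGE2 receptors, the members hold EP2 and EP4, which both raise cyclic AMP. The other PGE2 receptors, PTGER1 (EP1) and PTGER3 (EP3), had a mean FPKM of 0.0629 and 0.0699 and were not tested. PTGER2, for EP2, lies at chr14:52781016-52795322 and had an FPKM of 2.98, 2.32 and 1.99 in vehicle tumors and 2.01, 2.55 and 3.21 in WCE tumors. PTGER4, for EP4, lies at chr5:40680032-40693837 and had an FPKM of 3.75, 4.95 and 4.90 in vehicle tumors and 4.60, 4.93 and 4.78 in WCE tumors. Neither receptor separated the groups, and for PTGER4 only vehicle replicate 1 stood apart. The difference was 0.06 ± 0.17 (SE) for PTGER2, with a limma p of 0.723, and 0.07 ± 0.12 (SE) for PTGER4, with a limma p of 0.595. For 2 tumors against 2 these were 0.09 and 0.14. PTGER4 exceeded PTGER2 in each tumor, by 1.26 to 2.46 times in FPKM.

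HPGD encodes 15-hydroxyprostaglandin dehydrogenase, the enzyme that starts the breakdown of PGE2, and lies at chr4:175411328-175444049. Its FPKM was 194, 312 and 219 in vehicle tumors and 219, 290 and 226 in WCE tumors. Replicate 2 was the highest of each group, and the WCE range lay inside the vehicle range. The mean placed HPGD above 98.5% of all entries of the table. The difference was 0.04 ± 0.20 (SE) on the log2 scale, with a 95% interval from −0.42 to 0.49 and a limma p of 0.851, and was 0.06 for 2 tumors against 2.

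The transcript for PGE2 breakdown was thus many times that for the inducible cyclooxygenase. The ratio of HPGD to PTGS2 in FPKM was 31.4, 38.7 and 18.0 in vehicle tumors and 18.7, 80.8 and 41.7 in WCE tumors. It was lowest in vehicle replicate 3 and WCE replicate 1 and highest in WCE replicate 2. The group means were 29.4 ± 10.5 and 47.1 ± 31.4 (SD, n = 3 each), and the ranges overlapped. Without vehicle replicate 3 and WCE replicate 1, both remaining WCE tumors lay above both vehicle tumors, the nearest values being 41.7 and 38.7. This ratio was not tested, and an exact permutation p for 2 tumors against 2 can go no lower than 0.333.

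ALOX5, at chr10:45869624-45941567, encodes 5-lipoxygenase, which makes the precursor of the leukotrienes and is best known from myeloid cells. Its FPKM was 0, 0.139 and 0.0628 in vehicle tumors and 0.0836, 0.0491 and 0.0505 in WCE tumors. These are between 0 and 5 of the smallest steps, and in WCE replicate 1, the shallowest library, the value is 1 step. No difference between groups could be read at this level, and ALOX5 was not tested. All 10 myeloid markers were under the filter as well. These are human entries, so their low values do not measure the myeloid cells of the mouse host. The study found such cells in PC-3 tumors by flow cytometry.

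The plot of differences sets the 8 tested members side by side. PTGS2 had the largest difference below 0 and also the largest SE, and the receptors and HPGD lay near 0.

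**Figure D3:**
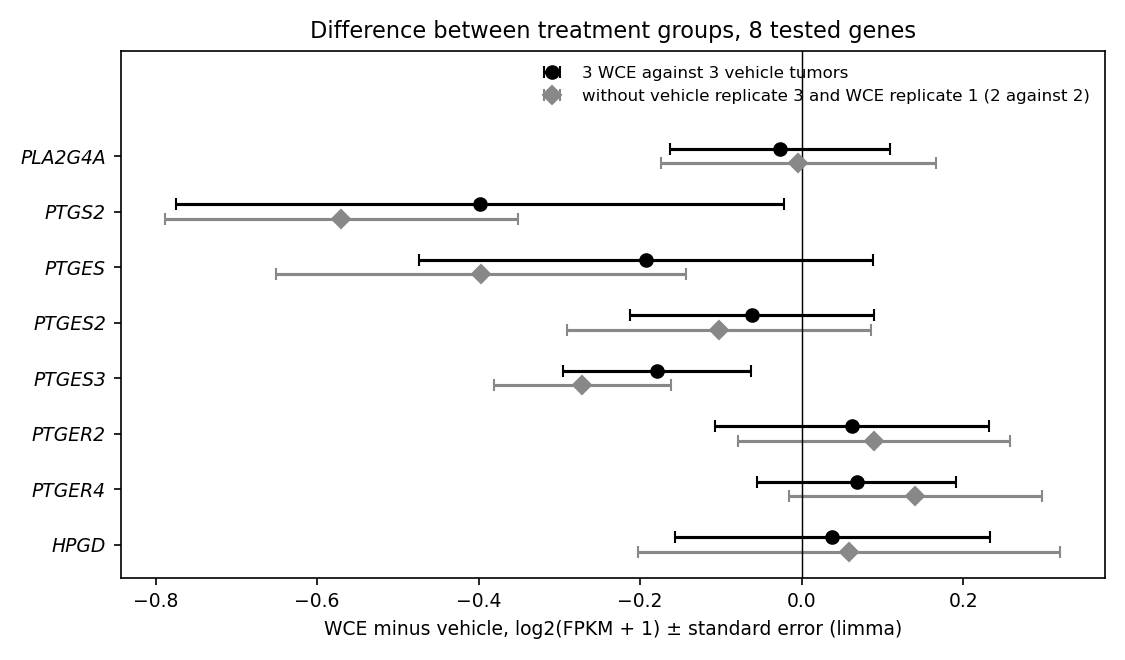
Difference between groups (WCE minus vehicle, log2(FPKM + 1), with the limma SE as error bar) for the 8 tested members, from all 6 tumors (black) and from 2 tumors against 2 (gray). PTGS2 lies at −0.40 with all tumors and at −0.57 with 2 against 2, and the other members lie between −0.40 and 0.14 in both.

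The rest of the eicosanoid pathway was read from a list of 50 further genes, which had 49 entries because LTB4R and LTB4R2 share 1. Of these, 22 passed the filter and 27 did not, and 4 were listed at 0 in every tumor (PLA2G5, HPGDS, DPEP1 and DPEP2). By limma, 0 of the 22 had an adjusted p under 0.05, the lowest being 0.623. At an unadjusted p under 0.05 there were 4, of which 3 were higher in WCE tumors, with 3.78% of all entries called in this direction, and 1 was lower, with 3.33% called. The groups did not overlap for 3 of the 22, near the background share, since 12.8% of all tested entries had groups that did not overlap. The difference was above 0 for 11 and below 0 for 11, with a median of 0.0049.

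Of the 6 tested genes for phospholipases and arachidonate supply, 5 had a difference above 0 and 1 was under an unadjusted p of 0.05. This was MGLL, monoacylglycerol lipase, which frees arachidonic acid from the endocannabinoid 2-arachidonoylglycerol. Its FPKM was 10.7, 11.3 and 20.2 in vehicle tumors and 21.2, 26.6 and 25.5 in WCE tumors. All WCE tumors lay above all vehicle tumors, though vehicle replicate 3 and WCE replicate 1 were close together. The difference was 0.80 ± 0.23 (SE) on the log2 scale, with a limma p of 0.00833, an adjusted p of 0.623 and an exact permutation p of 0.1, and was 1.17 for 2 tumors against 2. PLA2G16, a phospholipase also known from fat tissue, had a difference of 0.25 ± 0.18 (SE), and of 0.34 for 2 tumors against 2.

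Of the 5 tested terminal synthases and reductases, 1 was under an unadjusted p of 0.05. TBXAS1, thromboxane synthase, had an FPKM of 7.75, 9.96 and 12.6 in vehicle tumors and 14.0, 20.4 and 17.9 in WCE tumors. The groups did not overlap, and again vehicle replicate 3 and WCE replicate 1 were neighbors. The difference was 0.74 ± 0.19 (SE) on the log2 scale, with a limma p of 0.00536, an adjusted p of 0.623 and an exact permutation p of 0.1, and was 1.04 for 2 tumors against 2. Platelet markers, for cells that also use this enzyme, summed to 5.56 to 11.1 in vehicle tumors and 4.65 to 12.0 in WCE tumors. Of these, PF4 was 1.97 to 2.67 and 0.636 to 1.44, while PPBP and ITGA2B overlapped between the groups. The part of platelets in the level of TBXAS1 was not tested. The more abundant CBR1, which can reduce PGE2 to another prostaglandin, had an FPKM of 59.5 to 80.9 and a difference of −0.16 ± 0.11 (SE), or −0.23 for 2 tumors against 2. FAM213B (23.5 to 34.0) and AKR1C3 (17.2 to 24.7), both prostaglandin F synthases, had differences of 0.16 and 0.02, or 0.19 and 0.02 for 2 tumors against 2.

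Transport and breakdown had 3 tested genes, of which 1 was under an unadjusted p of 0.05. PTGR2, a reductase that acts on the product of HPGD, had an FPKM of 16.6, 20.3 and 14.0 in vehicle tumors and 12.7, 12.6 and 11.5 in WCE tumors. Every WCE tumor lay below every vehicle tumor. The difference was −0.43 ± 0.14 (SE) on the log2 scale, with a limma p of 0.0166, an adjusted p of 0.623 and an exact permutation p of 0.1. It was −0.57 for 2 tumors against 2, and without WCE replicate 3 the limma p was 0.0610. PTGR1, the related reductase that also inactivates leukotriene B4, had an FPKM of 28.7 to 36.3 and a difference of −0.11 ± 0.11 (SE), or −0.15 for 2 tumors against 2.

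Among lipoxygenase and leukotriene synthesis genes, 4 were tested. In limma 0 of them reached an unadjusted p under 0.05, and all 4 differences were below 0. The difference of ALOXE3 was only −0.01, and turned to 0.06 for 2 tumors against 2. LTA4H, which makes leukotriene B4 and is also an aminopeptidase, had an FPKM of 38.0 to 57.0, and MGST2, a glutathione transferase that can make leukotriene C4, had 37.7 to 50.8. Their differences were −0.07 ± 0.17 and −0.20 ± 0.11 (SE). For 2 tumors against 2 they were −0.05 and −0.31, and the limma p of MGST2 was then 0.0380, compared with 0.101 for all tumors, in the fit where 18.4% of all entries were under an unadjusted p of 0.05. ALOX5AP, the partner protein of ALOX5, was named after its values were seen. Its FPKM was 1.55, 11.1 and 7.41 in vehicle tumors and 8.01, 1.96 and 3.25 in WCE tumors, a spread larger than the difference of −0.40 ± 0.61 (SE). It was −0.65 for 2 tumors against 2.

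For receptors, limma gave 0 of the 3 tested prostanoid receptors an unadjusted p under 0.05. The lowest was at PTGFR, with a difference of −0.30 ± 0.14 (SE) and a limma p of 0.0625. For 2 tumors against 2 it was −0.45 with a limma p of 0.0166. In that fit 18.4% of all entries were under an unadjusted p of 0.05. The 1 tested leukotriene receptor entry, shared by the leukotriene B4 receptors LTB4R and LTB4R2, was under this threshold. Its FPKM was 3.43, 4.78 and 6.35 in vehicle tumors and 6.23, 8.95 and 8.14 in WCE tumors. The groups overlapped only through vehicle replicate 3 and WCE replicate 1. The difference was 0.60 ± 0.20 (SE) on the log2 scale, with a limma p of 0.0199 and an adjusted p of 0.623, and was 0.91 for 2 tumors against 2. The limma p was 0.0513 to 0.0675 in 4 fits, each without a single tumor (vehicle replicate 1 or 2, or WCE replicate 2 or 3). The locus also overlaps CIDEB, so reads of these genes may not be told apart. Overlaps with other listed genes also hold for CBR1, MGST2, PTGR1 and FAM213B.

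**Figure D4:**
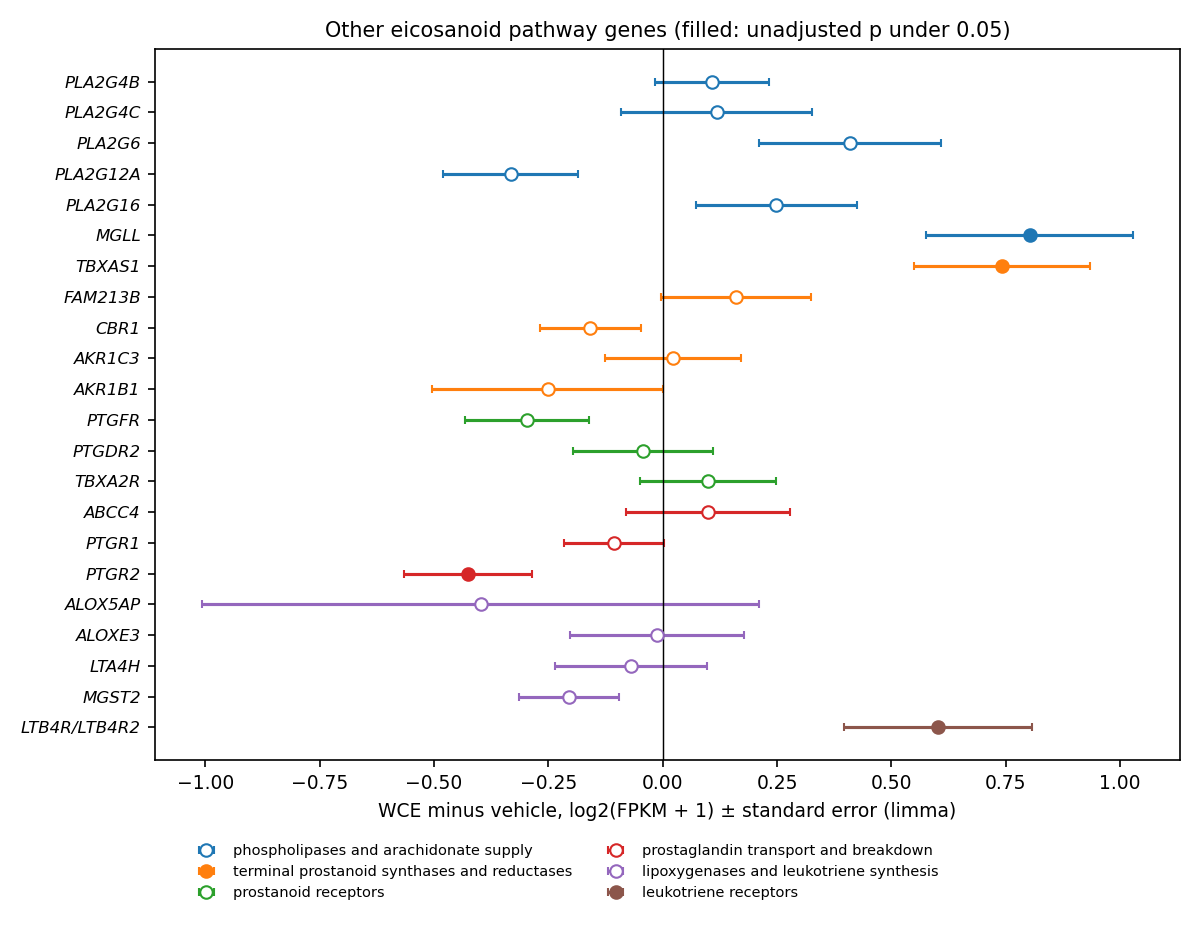
Difference between groups (WCE minus vehicle, log2(FPKM + 1), error bars of 1 limma SE) for the 22 tested genes of the further pathway list, colored by role, with filled points for an unadjusted p under 0.05. MGLL, TBXAS1 and the LTB4R entry lie above 0.5, PTGR2 lies at −0.43, and none of the 22 passed the adjusted threshold.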

How the data were processed

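RNA-seq of polyadenylated RNA from strand-specific libraries was analysed for 6 PC-3 tumors, grouped by the sample titles. The authors deposited 1 table of FPKM values for 24000 gene entries, laid out like a gene table of Cufflinks. The submitters' processing notes list TopHat2 2.0.13, Cufflinks, hg19 and mm10 without a role or order, so how mouse reads were treated is not given in the sources used here. Loci are those of the table, counted from 1. The table was used without reference coordinates, and start site sequences from RefSeq (GRCh38.p14) were matched by symbol. Depth is known only relative to vehicle replicate 3, so no counting intervals are given.

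Values were analysed as log2(FPKM + 1), without entries under a mean FPKM of 0.5. WCE was set against vehicle in limma 3.58.1 (R 4.3.3) by a two-sided test that let the variance follow the mean, with Benjamini-Hochberg adjustment over all 13287 entries and a threshold of 0.05. Single values were compared by an exact two-sided permutation test. Python 3.11.15, numpy 2.4.6, pandas 2.3.3 and matplotlib 3.10.9 were used. The comparison was tested on simulated data. All 10 members are named, with the 8 most abundant genes of the further list and every gene of it with an unadjusted p under 0.05. ALOX5AP, ALOXE3, PTGFR and the marker genes named were singled out after their values were seen. The members and lists were chosen with earlier results of these data known. Alternatives were the pseudocount (0.1 or 5), the filter (none, or a mean FPKM of at least 5), 3 scalings, no trend, weights for the tumors, a replicate block, each tumor left out and 2 tumors against 2.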

Additional observations from a re-analysis of the deposited data

How the results depend on the processing

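In the 17 alternatives, 0 members and 0 genes of the further list passed the adjusted limma threshold. At an unadjusted p under 0.05 the count of members went from 0 to 1 with weights for the tumors and with 2 tumors against 2, and was 0 to 1 with each tumor left out in turn. The count for the further list was 4, and became 11 with weights and 8 with 2 tumors against 2, with a range of 2 to 7 with each tumor left out. Over all entries it was 944, and became 3201, 2449 and 219 to 2033. With weights, the difference turned to 0.068 for PLA2G4A, 0.076 for PTGES2 and −0.13 for HPGD. With a tumor left out, the sign also changed within −0.11 to 0.24 for HPGD (−0.11, −0.017 and −0.089 without vehicle replicate 1, vehicle replicate 3 and WCE replicate 2), −0.11 to 0.072 for PLA2G4A (0.034 without vehicle replicate 3 and 0.072 without WCE replicate 2), −0.48 to 0.083 for PTGES, −0.15 to 0.11 for PTGES2, −0.060 to 0.18 for PTGER2 (−0.060 without WCE replicate 3 and −0.031 without vehicle replicate 3) and −0.038 to 0.12 for PTGER4. Beyond the tumors left out, the cause of these changes was not tested. PTGS2 and PTGES3 kept their sign in every alternative. The LTB4R entry lost its unadjusted call without the filter on low values (limma p 0.0547). Same-numbered tumors of the groups did not deviate together (correlations −0.25, 0.16 and −0.043 over 9240 entries), and with the replicate block the counts at an unadjusted p under 0.05 were 0 members and 5 genes of the further list, with PTGS2 at −0.40. The difference in balance of PTGS2 and PTGS1 was −0.86 to −0.21 with each tumor left out and −0.88 with a pseudocount of 0.1 (exact permutation p 0.1). It has no value under the alternative filters, quantile normalization, no trend or weights. PTGER2, PTGER4 and PLA2G4A were not in the fit with a mean FPKM of at least 5. Depth limits PTGS1 and ALOX5, which stand at a few steps above 0.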
